A study of Homo sapiens with 27 samples.

Results

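The human keratin genes encode the epithelial intermediate filament proteins. The 55 genes described here are the rows of the count table whose Entrez ID maps to a protein-coding symbol made of KRT, a number and at most a letter A to C, out of 24566 rows in all. Keratin-associated proteins and pseudogenes were left out. There are 29 type I genes and 26 type II genes. All type II genes lie on chromosome 12, as does the type I gene KRT18, and the other 28 type I genes lie on chromosome 17, so that 27 of the members are on chromosome 12.

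Total RNA was sequenced from 2 established cell lines, A431 (epidermoid carcinoma) and MDA-MB-231 (breast adenocarcinoma), in 27 libraries of 9 groups with 3 biological replicates each, all taken at 48 h. A431 cells were left untreated or received a vehicle control, CKI, doxorubicin or CKI+doxorubicin. MDA-MB-231 cells were left untreated or received CKI, 5-FU or CKI+5-FU. Compound Kushen Injection (CKI) is a plant extract used in Chinese medicine and was given at 1 mg/ml. Doxorubicin is a topoisomerase inhibitor whose dose the labels leave ambiguous, and 5-FU (fluorouracil, a thymidylate synthase inhibitor) was given at 10 ug/ml. The vehicle is not named, nor is the treatment it belongs to. Each line is a single tumor line grown in culture, so that no other line of its kind stands beside it. The series asked how CKI changes the response to each drug.

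A keratin filament is built from pairs of a type I and a type II protein, so that every epithelial cell needs genes of both kinds. KRT5 and KRT14 (with KRT15) mark the basal layer of stratified epithelia, KRT1 and KRT10 mark the layers above it, KRT6A, KRT6B, KRT6C, KRT16 and KRT17 are the keratins of wounded or stressed epidermis, and KRT8, KRT18, KRT7 and KRT19 are those of simple epithelia. KRT13 and KRT4 belong to internal stratified epithelia, KRT9 to the skin of palms and soles, and KRT31 to KRT40 and KRT81 to KRT86 mostly to hair.

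The type I cluster on chromosome 17 holds the hair keratin genes KRT31, KRT33A, KRT33B and KRT34, all of which were called higher with CKI in A431 cells. On GRCh37 they are neighbours on the reverse strand: KRT33A at chr17:39502344-39507080, KRT33B at chr17:39519750-39526065, KRT34 at chr17:39533921-39538558 and KRT31 at chr17:39549973-39553860. The 100 bases before their annotated starts are shown, with those of KRT24 and KRT9, which lie in the same cluster, because these are the DNA stretches nearest to the starts of genes that moved together with CKI or apart from each other. Sequences are from RefSeq on GRCh38.p14, all on the reverse strand and written 5′ to 3′, and capitals mark the letters TATAAA.
KRT31, chr17:41397609-41397708: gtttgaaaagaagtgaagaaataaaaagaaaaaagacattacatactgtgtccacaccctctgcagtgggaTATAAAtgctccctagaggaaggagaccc
KRT33A, chr17:41350829-41350928: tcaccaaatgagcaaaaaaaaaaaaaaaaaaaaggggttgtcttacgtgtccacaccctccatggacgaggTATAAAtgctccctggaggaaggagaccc
KRT33B, chr17:41369814-41369913: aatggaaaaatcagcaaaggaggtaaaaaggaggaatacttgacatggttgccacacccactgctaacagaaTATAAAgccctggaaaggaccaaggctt
KRT34, chr17:41382307-41382406: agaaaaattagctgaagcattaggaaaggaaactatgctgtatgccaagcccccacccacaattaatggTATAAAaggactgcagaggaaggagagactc
KRT24, chr17:40703753-40703852: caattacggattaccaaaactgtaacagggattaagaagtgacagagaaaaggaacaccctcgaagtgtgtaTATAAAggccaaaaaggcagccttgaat
KRT9, chr17:41572060-41572159: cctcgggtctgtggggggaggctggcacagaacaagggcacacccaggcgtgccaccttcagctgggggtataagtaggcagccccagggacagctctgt

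TATAAA is the core of the TATA box, at which the general transcription machinery can be positioned. Of the 55 keratins, 34 matched the promoter table, and 17 of those 34 (50%) held TATAAA on either strand within the 100 bases before the start, against 5.34% of all 27305 promoters of that length. In KRT31 and KRT33A its first base lay 29 bases before the start, in KRT33B and KRT24 28 bases and in KRT34 31 bases. The 100 bases of KRT9 held no TATAAA. Over 250 bases and both strands, the AP-1 letters TGANTCA were found in 0 of the 34 keratins against 6.6% of all promoters, the antioxidant response letters TGACNNNGC in 7 (20.6%) against 11%, and the xenobiotic response core GCGTG in 4 (11.8%) against 31.9%. TATAAA was therefore the only one of the 4 whose share among these 34 keratins was more than 2 times that of all promoters. These are matches of letters in a window, not binding sites. KRT14, KRT15, KRT16, KRT17, KRT6A, KRT6B, KRT18, KRT7 and KRT19 were among the keratins without a match, so that the shares do not cover them.

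Total counts ranged from 17757206 to 22809339 per library, and 3 counts, the upper limit a count of 0 allows, came to 0.133 to 0.186 CPM (counts scaled to library size and TMM factors). Lines were checked against their usual markers. CDH1, the epithelial cadherin, had 374 CPM in untreated A431 and 1.8 in untreated MDA-MB-231 libraries, TP63 had 227 and 0.765, and VIM (vimentin, the mesenchymal filament protein) had 7.23 and 1730. ZEB1 had 65 CPM in untreated MDA-MB-231 cells, while CDH2 (0.478 CPM) and SPARC (3 CPM), which were also on the list, were near 0. Untreated MDA-MB-231 replicate 1 stood apart from its partners in several keratins, for example with 610 CPM of KRT19 against 878 and 904.

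Keratin RNA made up 0.964 to 1.01% of all counts in untreated A431 libraries and 0.274 to 0.293% in untreated MDA-MB-231 libraries. The share was 0.856 to 0.92% in the vehicle control, 0.81 to 0.849% with CKI, 1.46 to 1.5% with doxorubicin and 1.23 to 1.28% with CKI+doxorubicin in A431 cells, and these groups did not overlap. In MDA-MB-231 cells it was 0.224 to 0.225% with CKI, 0.169 to 0.175% with 5-FU and 0.17 to 0.182% with CKI+5-FU. In culture, fewer cells that express a keratin and less RNA of it per cell cannot be told apart. Of the 55 keratins, 12 had a mean of at least 100 CPM in untreated A431 cells and 4 in untreated MDA-MB-231 cells, and 11 and 26 had no count in any of the 3 libraries of the group.

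**Figure D1:**
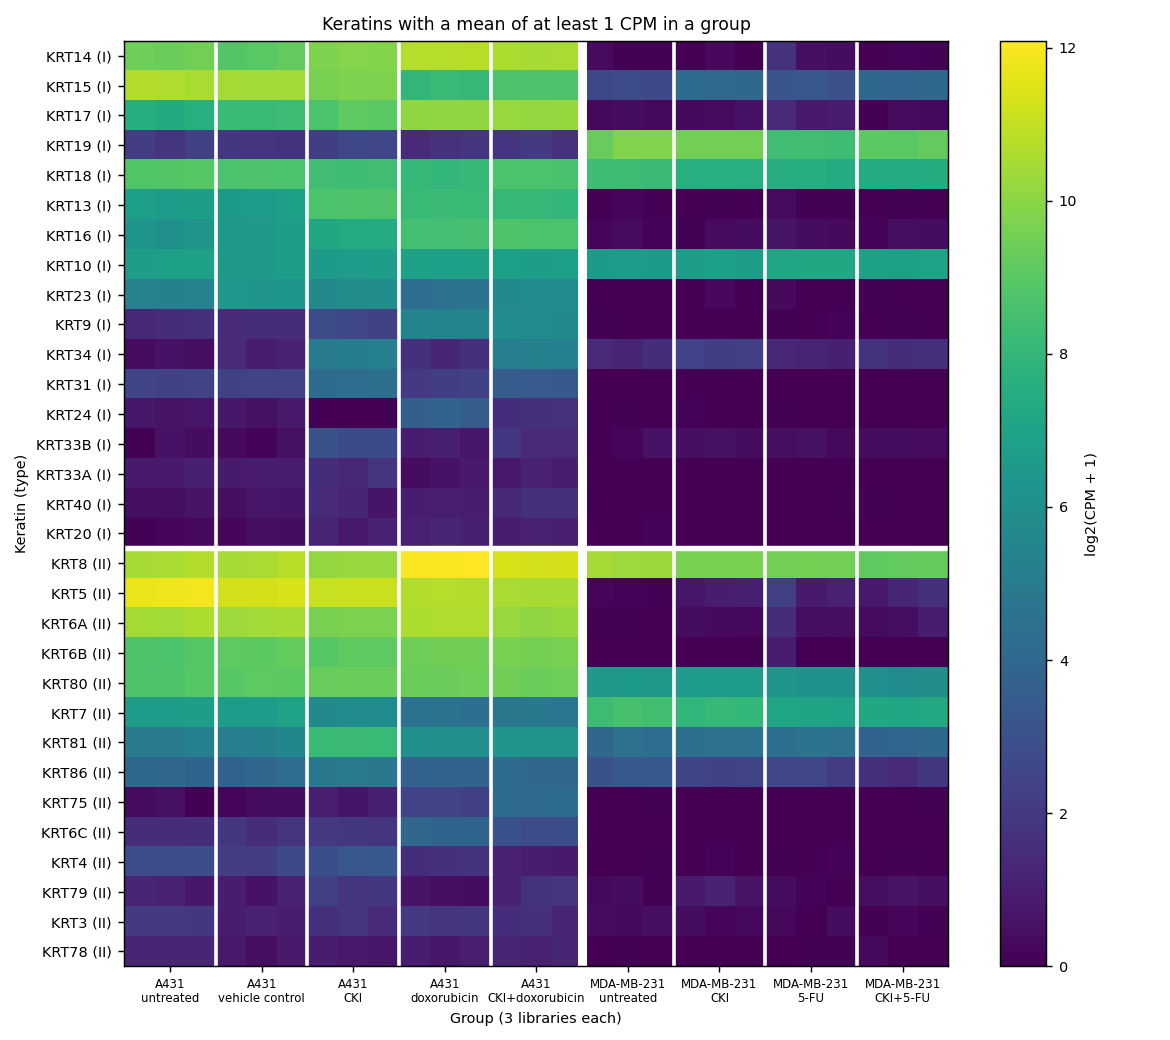
Levels of the 31 keratins (17 type I, 14 type II) with a mean of at least 1 CPM in a group, as log2(CPM + 1) by colour, with genes in rows and the 27 libraries in columns, 3 per group. The basal and stress keratins are bright in the 15 A431 libraries and dark in the 12 MDA-MB-231 libraries, and KRT19 is the reverse.

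The 2 lines used different keratins. A gene was called when edgeR's quasi-likelihood test gave a Benjamini-Hochberg adjusted p under 0.05 over all genes and the absolute log2 fold change was above 1. Between untreated lines, 27 of the 55 keratins passed the filter on low counts. Of these, 19 were higher in A431 (the background over all 14181 genes tested was 19.7%) and 3 were lower (21.8%). For 17 of the 19, every MDA-MB-231 library had under 10 counts, so that the gene had passed the filter only through A431 and had to differ. The other 2 were KRT15 and KRT80. The 3 lower genes were KRT19, KRT7 and KRT34. KRT34 had 5, 9 and 6 counts in A431 and 34, 30 and 41 in MDA-MB-231. It had thus passed the filter only through MDA-MB-231 and had to differ.

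The basal pair was close to absent from MDA-MB-231. KRT5 (chr12:52908359-52914314) had 3450, 3463 and 3777 CPM in the untreated A431 libraries and 0.104, 0.0922 and 0.0492 CPM in the MDA-MB-231 libraries, which is 2, 2 and 1 counts. KRT14 (chr17:39738531-39743147) had 695, 669 and 738 CPM against 5, 1 and 1 counts. Every A431 library lay far above every MDA-MB-231 library in both genes, which are among the 17 that had to differ. KRT15, the basal keratin that can stand in for KRT14, had 1653, 1615 and 1522 CPM against 5.22, 5.94 and 5.36 CPM.

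The stress keratins followed the same order. KRT6A had 1423, 1341 and 1534 CPM in A431 and 2 counts over the 3 MDA-MB-231 libraries, a ratio of 43700 with a 95% counting interval of 12100 to 361000. KRT6B had 433, 409 and 472 CPM in A431 and no count in MDA-MB-231, which is at least 2970-fold higher against a floor of 3 counts per library. KRT17 had 182, 165 and 194 CPM and KRT16 81.1, 66.7 and 76.2 CPM in A431, against 15 and 11 counts over the 3 MDA-MB-231 libraries. KRT13 had 114, 102 and 110 CPM against 3 counts, a ratio of 2220 (interval 758 to 10800). These intervals cover counting error only.

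The simple epithelial keratins split. KRT8 and KRT18, the pair that simple epithelia share, were at similar levels in both lines: KRT8 had 1460, 1525 and 1657 CPM in A431 and 1397, 1282 and 1228 CPM in MDA-MB-231 (log2 fold change 0.2, SE 0.092, adjusted p = 0.085), and KRT18 had 441, 456 and 489 against 326, 311 and 303 CPM (0.51, SE 0.085, adjusted p = 8.6e-04, under the fold limit). KRT19, a type I keratin of simple and glandular epithelia, was lower in A431, with 3.52, 2.53 and 4.27 CPM against 610, 878 and 904 CPM (log2 fold change -7.91, SE 0.27, adjusted p = 1.8e-07). KRT7, a type II keratin of glandular epithelia, had 99.2, 101 and 107 CPM in A431 against 309, 374 and 342 CPM (-1.79, SE 0.11, adjusted p = 2.6e-06). KRT10 had 105, 116 and 118 CPM against 93.7, 102 and 96.1 CPM, and its adjusted p was 0.14. KRT1, its usual partner, was at 0, 0 and 1 counts in A431 and 1, 0 and 0 counts in MDA-MB-231.

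Per kilobase of exon, the level scale on which genes can be compared, KRT5 made up 44.8% of type II keratin RNA in untreated A431 cells and KRT6A 25.4%, while KRT14 made up 33.4% and KRT15 28.8% of type I. In untreated MDA-MB-231 cells KRT19 made up 69.1% and KRT18 21.2% of type I, and KRT8 made up 61.1% and KRT7 27.6% of type II. Type I RNA summed to 929 ± 22.7 and type II to 1924 ± 112 CPM per kb in untreated A431 cells (SD, n = 3), a type I to type II ratio of 0.484 ± 0.018. In untreated MDA-MB-231 cells the sums were 491 ± 67.3 and 310 ± 9.35 CPM per kb and the ratio was 1.59 ± 0.24. The order of the sums was thus opposite in the 2 lines.

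**Figure D2:**
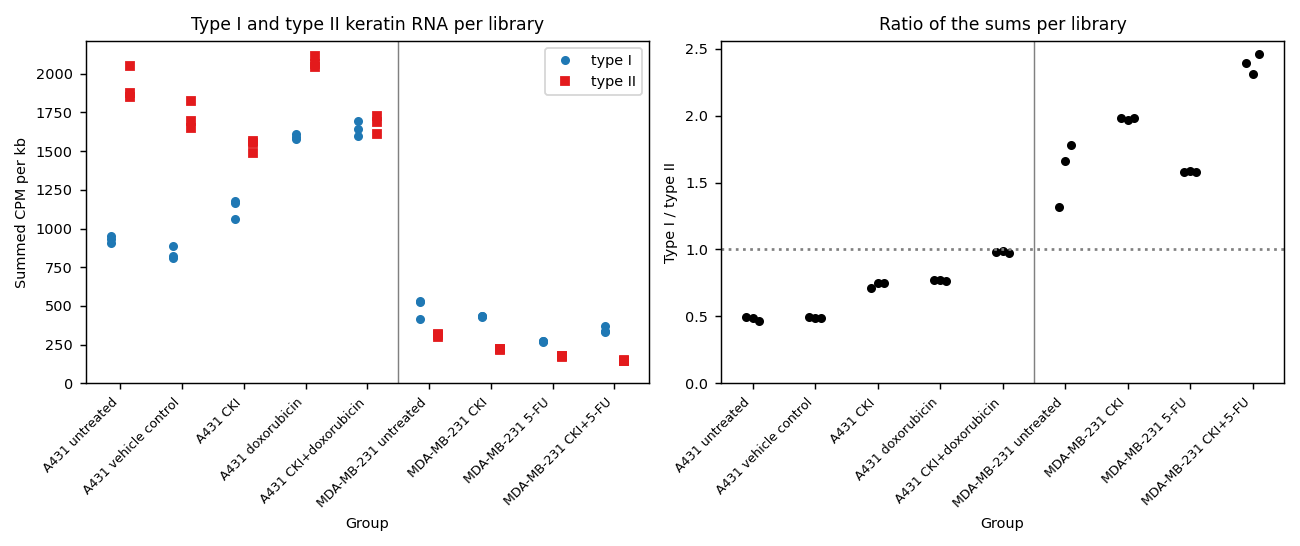
Summed CPM per kb of the type I keratins (circles) and type II keratins (squares) in each library (left) and their ratio (right), by group, 3 libraries each. The ratio lies near 0.484 in untreated A431 cells, near 0.982 with CKI+doxorubicin, and above 1 in all MDA-MB-231 groups.

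The sums moved with treatment in A431 cells. The ratio was 0.489 ± 0.0032 in the vehicle control, 0.739 ± 0.022 with CKI, 0.769 ± 0.0057 with doxorubicin and 0.982 ± 0.0084 with CKI+doxorubicin. Type I RNA rose in sum to 1135 ± 65.4 CPM per kb with CKI and to 1594 ± 16.8 with doxorubicin, while type II RNA was at 1535 ± 42.7 and 2073 ± 37.3. In MDA-MB-231 cells the ratio was 1.98 ± 0.0076 with CKI, 1.58 ± 0.0024 with 5-FU and 2.39 ± 0.076 with CKI+5-FU, and the group means of both sums were lower than in untreated cells. For type I with CKI the libraries overlapped. Untreated replicate 1, at 413 CPM per kb, lay below the CKI libraries at 432, 432 and 434. These sums are descriptions with no test. Their level rests on the gene model, since the longest transcript in place of all exons gave 0.43 in untreated A431 and 1.1 in untreated MDA-MB-231 cells. It also rests on the genes summed. Without the type II genes KRT6B, KRT6C, KRT81, KRT83, KRT85 and KRT86 the ratio in A431 was 0.544 untreated and 0.579 in the vehicle control. It was then 0.993 with CKI, 0.927 with doxorubicin and 1.28 with CKI+doxorubicin, so that type I was the larger sum in the last group.

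The vehicle control differed from untreated A431 cells in 4 called keratins. Of 37 keratins tested, 15 had an adjusted p under 0.05, and past the fold limit 2 were higher (background 1.05%) and 2 were lower (background 1.5%). KRT23, a type I keratin of gland and gut epithelia, had 39.5, 37.4 and 40.7 CPM in untreated cells and 86.2, 77.7 and 79.6 CPM in the vehicle control (log2 fold change 1.06, SE 0.081, adjusted p = 1.1e-09). KRT34 had 5, 9 and 6 counts against 31, 19 and 23 counts (1.75, SE 0.33), a gene with under 10 counts in every untreated library. KRT3 (-1.49, SE 0.21, adjusted p = 1.4e-05) and KRT78 (-1.2, SE 0.29, adjusted p = 0.0023) were lower, at 59 and 34 counts over the 3 vehicle libraries, and KRT78 was at -0.89 without vehicle replicate 2. Below the fold limit, KRT17 was higher by 0.73 (SE 0.082) and KRT5 and KRT14 were at -0.49 (SE 0.049) and -0.44 (SE 0.068), and the vehicle and untreated libraries of these 3 genes did not overlap.

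CKI in A431 cells raised hair keratins, KRT13 and some stress keratins. Compared to untreated, 15 of the 37 tested keratins were higher (background 12%) and 2 were lower (background 10.4%), and 11 of the 15 were type I. In 7 of the 15, KRT34 and KRT33B among them, every untreated library had under 10 counts, so that they passed the filter only through the groups where they were high and had to differ. The median log2 fold change was 0.47 over the 37 and 0 over all genes tested.

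KRT34 went from a few counts to above 30 CPM. It had 5, 9 and 6 counts (0.299, 0.495 and 0.371 CPM) in untreated A431 cells and 30.8, 33.9 and 35.8 CPM with CKI, and no library of one group reached the other (log2 fold change 6.3, SE 0.18). Against the vehicle control, which had 31, 19 and 23 counts, it was at 4.56. Its neighbour KRT31 had 4.84, 4.12 and 4.58 CPM and 18.1, 19.3 and 20.8 CPM with CKI (2.01, SE 0.11, adjusted p = 2.6e-13). KRT33B had 1, 9 and 5 counts and then 135, 105 and 99 counts (4.23, SE 0.35), and KRT33A had 14, 15 and 18 counts and then 40, 29 and 48 (1.08, SE 0.28, adjusted p = 0.0018). All 4 neighbours were thus called higher, though KRT33B shares 5.54% of its 100-base windows with KRT31, KRT33A and KRT34, so that reads of these genes may be split among them.

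KRT81, a type II hair keratin on chromosome 12, had 30.3, 32 and 36.2 CPM in untreated cells and 288, 298 and 295 CPM with CKI (3.07, SE 0.082, adjusted p = 7.3e-19). KRT86 was at 15.2, 14.9 and 13.8 CPM and then 27.2, 31.8 and 28 CPM, a difference of 0.89 (SE 0.11, adjusted p = 2.0e-07) that stayed under the fold limit. KRT81 shares 30.3% of its 100-base windows with KRT86 or the pseudogene KRT87P, and KRT86 shares 26.3%, so that the split between the 2 is uncertain. KRT13 rose from 114, 102 and 110 CPM to 409, 429 and 417 CPM (1.85, SE 0.063, adjusted p = 4.8e-17). KRT9 rose from 1.55, 1.87 and 2.23 CPM to 5.81, 4.89 and 4.05 CPM (1.3, SE 0.16, adjusted p = 1.3e-07). The other higher members, each at most 3.13 CPM on average with CKI, were KRT20, KRT37, KRT40, KRT75, KRT79 and KRT83.

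Among the stress keratins, KRT17 had 182, 165 and 194 CPM in untreated cells and 410, 553 and 518 CPM with CKI (1.36, SE 0.083, adjusted p = 1.1e-12). KRT16 rose from 81.1, 66.7 and 76.2 CPM to 147, 174 and 175 CPM (1.05, SE 0.076, adjusted p = 2.3e-11). The vehicle control had KRT17 at 288, 280 and 320 CPM, between the other groups, and against it the log2 fold changes of KRT17 and KRT16 were 0.64 and 0.7, under the fold limit. Without untreated replicate 2, KRT16 was at 0.98. KRT6A, the type II partner of KRT16, went the other way, from 1423, 1341 and 1534 CPM to 788, 829 and 828 CPM (-0.91, SE 0.057, adjusted p = 1.6e-12), without reaching the limit. KRT6B differed by 0.16 (SE 0.063, adjusted p = 0.026), and by -0.19 against the vehicle.

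KRT15 fell with CKI, and KRT5, KRT7, KRT18 and KRT8 were lower below the fold limit. KRT15 went from 1653, 1615 and 1522 CPM to 792, 862 and 858 CPM (-1.02, SE 0.053, adjusted p = 7.1e-14), a value so near the limit that the call was lost with DESeq2 (-1), with library size alone (-0.92), against the vehicle control (-0.8) and without CKI replicate 1 (-0.98). KRT5 was at 2163, 2201 and 2198 CPM (-0.8, SE 0.05, adjusted p = 1.6e-12, and -0.3 against the vehicle), KRT7 at 53.7, 58 and 58.4 CPM (-0.95, SE 0.078), KRT18 at 332, 320 and 330 CPM (-0.59, SE 0.052) and KRT8 at 1105, 1183 and 1184 CPM (-0.51, SE 0.064). In these 4 genes every CKI library lay below every untreated library. KRT14 went the other way, by 0.28 (SE 0.067, adjusted p = 8.1e-04, and 0.72 against the vehicle), so that the ratio of KRT14 to KRT5, per kilobase, was 0.76 ± 0.034 with CKI and 0.36 ± 0.008 without.

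KRT24, a type I keratin best known from the cornea, fell. It had 12, 10 and 11 counts in untreated cells, 12, 9 and 14 in the vehicle control and 0, 0 and 0 with CKI, which is at least 4.06-fold lower against the floor of 3 counts per library (adjusted p = 5.7e-07). It was the only keratin with 10 or more counts in every untreated A431 library that had no count in any CKI library.

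**Figure D3:**
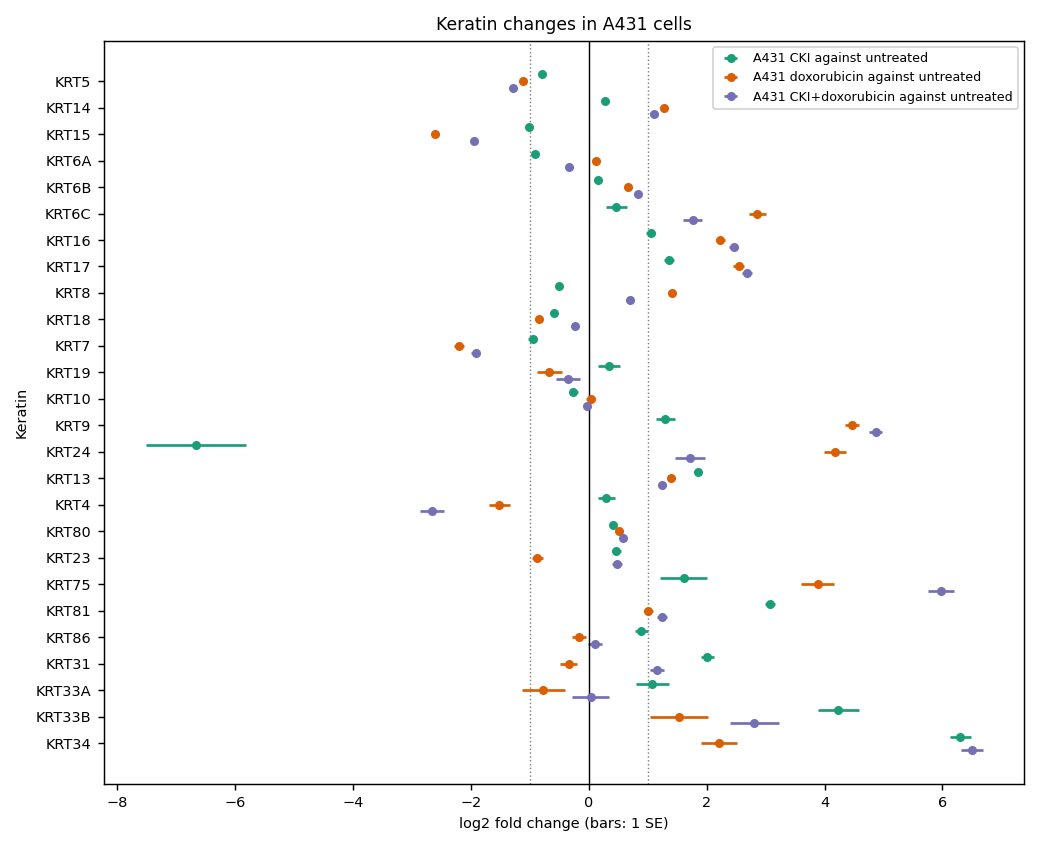
log2 fold changes against untreated of 26 keratins in A431 cells treated with CKI, doxorubicin or both, with bars of 1 SE and dotted lines at the fold limit of 1. KRT34 lies at 6.3 and 6.5 in the 2 groups that received CKI and at 2.21 with doxorubicin alone, and KRT24 lies on opposite sides of 0 with CKI and with doxorubicin.

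Doxorubicin in A431 cells raised KRT17, KRT16, KRT14 and KRT8 and lowered KRT15, KRT7 and KRT5. Of the 37 keratins tested, 20 were higher (background 23%) and 5 were lower (background 14.3%), but in 11 of the 20 every untreated library had under 10 counts. The median log2 fold change was 1.12 over the 37 and 0.02 over all genes tested.

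KRT17 had 1068, 1067 and 1075 CPM with doxorubicin, against 182, 165 and 194 CPM untreated (2.54, SE 0.086, adjusted p = 1.9e-17). KRT16 had 354, 357 and 362 CPM against 81.1, 66.7 and 76.2 CPM (2.23, SE 0.078, adjusted p = 3.4e-17). KRT6C rose from 31, 34 and 33 counts to 307, 280 and 275 counts (2.86, SE 0.14, adjusted p = 2.1e-14). Of this group KRT6B (0.66, SE 0.063) and KRT6A (0.12, SE 0.056, adjusted p = 0.045) stayed under the fold limit. KRT6A, KRT6B and KRT6C share 18.2 to 31.4% of their 100-base windows with each other or KRT5, so that a small error in the split of reads from KRT6A could weigh on KRT6C.

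The basal keratins did not move together. KRT5 was at 1649, 1689 and 1682 CPM with doxorubicin against 3450, 3463 and 3777 CPM untreated (-1.12, SE 0.05, adjusted p = 2.9e-15), and against the vehicle control the difference was -0.62, under the fold limit. With library size alone it was -0.77. KRT15 fell to 250, 283 and 264 CPM from 1653, 1615 and 1522 CPM (-2.61, SE 0.056, adjusted p = 7.8e-21), the keratin with the smallest p in this comparison. KRT14 rose to 1710, 1716 and 1765 CPM from 695, 669 and 738 CPM (1.28, SE 0.068, adjusted p = 7.4e-14). The ratio of KRT14 to KRT5, per kilobase, was 1.9 ± 0.031 with doxorubicin, and the doxorubicin and untreated libraries did not overlap.

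KRT8 rose from 1460, 1525 and 1657 CPM to 4103, 4119 and 4354 CPM (1.41, SE 0.065, adjusted p = 4.7e-15). KRT18, its obligate partner in simple epithelia and its neighbour on chromosome 12, was at 261, 258 and 271 CPM against 441, 456 and 489 CPM (-0.84, SE 0.052, adjusted p = 1.0e-12, under the fold limit). The ratio of KRT18 to KRT8, per kilobase, was 0.67 ± 0.008 in untreated cells, 0.591 ± 0.058 in the vehicle control, 0.635 ± 0.034 with CKI and 0.141 ± 0.0016 with doxorubicin. The exons of KRT18 overlap those of KRT8 and another gene over 19.97% of their length, and the libraries do not mark strand. KRT7 fell to 23.1, 24.5 and 20.7 CPM from 99.2, 101 and 107 CPM (-2.2, SE 0.084, adjusted p = 1.7e-16). KRT8 thus rose, KRT7 fell and KRT18 was lower within one set of libraries.

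**Figure D4:**
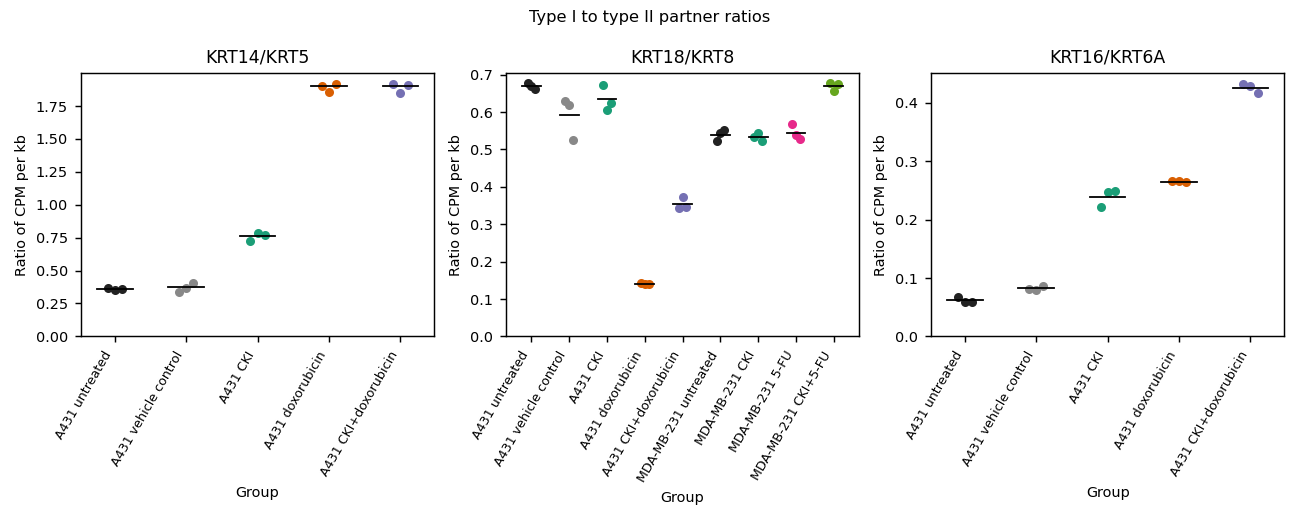
Ratio of CPM per kb of 3 type I keratins to a usual type II partner, per library (points) with group means (lines), for the groups in which both genes had at least 10 counts per library. KRT14/KRT5 is near 0.36 in untreated A431 cells and 1.9 with doxorubicin, and KRT18/KRT8 is near 0.67 and 0.141.

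Keratins of other epithelia also rose with doxorubicin. KRT9 had 43.1, 42 and 42.1 CPM against 1.55, 1.87 and 2.23 CPM (4.46, SE 0.12, adjusted p = 2.6e-19). KRT24 had 241, 270 and 217 counts against 12, 10 and 11 (4.18, SE 0.19, adjusted p = 3.3e-14), and KRT75, a hair follicle keratin with under 10 counts in every untreated library, had 89, 89 and 76 counts against 5, 8 and 1 (3.88, SE 0.28). KRT13 rose to 288, 304 and 285 CPM (1.4, SE 0.063). KRT81 was at 67.8, 66.9 and 67.6 CPM (1.01, SE 0.081), and at 0.73 against the vehicle control, and leaving out untreated replicate 1 or 2 or doxorubicin replicate 3 gave 0.94 to 1. KRT4 (-1.52, SE 0.18), the usual partner of KRT13, and KRT79 (-1.57, SE 0.43) fell, at 132 and 24 counts over the 3 libraries.

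Many silent keratins gained a few counts. With doxorubicin 54 of the 55 keratins had at least 1 count in each library, against 40 or 41 in the untreated libraries. Of the 11 keratins with no count in untreated A431 cells, 10 had a count in every doxorubicin library, at 1 to 21 counts. Of all 6470 rows with no count in untreated A431 cells, 2136 (33%) had a count in every doxorubicin library. With CKI, 3 of the 11 keratins and 2.43% of all such rows did so. KRT72, an inner root sheath keratin, had 21, 8 and 20 counts, at least 4.59-fold higher than the floor of 3 counts per untreated library, and KRT85, a hair keratin, had 15, 14 and 18 counts, at least 4.4-fold higher. KRT25 had 11, 8 and 14 counts against 0, 1 and 0, a ratio of 27.9 with an interval of 4.67 to 1130. The part that this change over all silent rows had in the keratin values was not tested.

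With CKI+doxorubicin, 20 keratins were higher than in untreated cells (background 21.7%) and 4 were lower (background 13.8%). In 11 of the 20 every untreated library had under 10 counts. This comparison shares its untreated libraries with the 2 before it. KRT34 had 35.3, 37.3 and 36.3 CPM (6.5, SE 0.18, and 4.76 against the vehicle), close to its 30.8 to 35.8 CPM with CKI alone and far above the 1.44 to 2.1 CPM with doxorubicin alone. KRT9 had 56.8, 56.3 and 53.2 CPM (4.87, SE 0.11, adjusted p = 5.0e-20), KRT17 had 1210, 1121 and 1157 CPM (2.68, SE 0.086) and KRT16 had 430, 400 and 410 CPM (2.46, SE 0.078). KRT15 was at 418, 412 and 414 CPM (-1.95, SE 0.055, adjusted p = 8.7e-19), KRT5 at 1502, 1431 and 1458 CPM (-1.29, SE 0.05, and -0.8 against the vehicle) and KRT7 at 26.7, 28.7 and 26 CPM (-1.92, SE 0.082). KRT14 had 1572, 1446 and 1523 CPM (1.1, SE 0.068), so that the basal pair stood as it did with doxorubicin. KRT8 was at 2603, 2418 and 2540 CPM (0.7, SE 0.064, under the limit) and KRT18 at 399, 401 and 391 CPM (-0.23, SE 0.051, but 0.09 with library size as the only scaling).

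Adding CKI to doxorubicin changed 12 of the 37 keratins compared to doxorubicin alone, 8 higher (background 6.89%) and 4 lower (background 8.03%). All of the 8 had 10 or more counts in at least 1 doxorubicin library. KRT34 rose from 2.1, 1.44 and 2.06 CPM to 35.3, 37.3 and 36.3 CPM (4.3, SE 0.13, adjusted p = 1.5e-17), KRT75 from 4.36, 4.42 and 3.82 to 17.7, 17 and 18.5 CPM (2.1, SE 0.13, adjusted p = 4.3e-12) and KRT23 from 19.8, 21.9 and 24 to 52, 55.9 and 57 CPM (1.35, SE 0.085, adjusted p = 4.2e-12). KRT31 (1.5, SE 0.12), KRT33B (1.28, SE 0.31), KRT37, KRT40 and KRT79 were the other higher members. KRT24 fell from 11.8, 13.4 and 10.9 CPM to 2.04, 2.15 and 2.3 CPM (-2.45, SE 0.15, adjusted p = 8.2e-12), KRT6C from 15, 13.9 and 13.8 to 7.14, 5.82 and 6.6 CPM (-1.11, SE 0.11, adjusted p = 1.2e-08) and KRT4 from 40, 43 and 49 to 25, 19 and 17 counts (-1.14, SE 0.24, adjusted p = 3.2e-04), and KRT85 was also lower. KRT85 had 15, 14 and 18 counts with doxorubicin and 4, 5 and 3 with CKI+doxorubicin. It had passed the filter only through the doxorubicin libraries and had to be lower. With GC and length offsets KRT6C and KRT4 were at -0.91 and -0.94, under the fold limit. KRT34, KRT31 and KRT33B were thus called higher, and KRT24 lower, each time CKI was set against its own control in A431 cells. KRT8 was lower by 0.71 (SE 0.064) and KRT18 higher by 0.61 (SE 0.052), which moved their ratio from 0.141 to 0.353 ± 0.016.

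The interaction of CKI with doxorubicin, the log2 change with CKI in doxorubicin-treated cells minus that in cells without doxorubicin, was called in 15 keratins. It was above 0 in 5 (background 8.56%) and below 0 in 10 (background 10.9%). KRT81 had the smallest p (-2.84, SE 0.11, adjusted p = 6.0e-15): CKI raised it from 30.3, 32 and 36.2 CPM to 288, 298 and 295 CPM without doxorubicin and from 67.8, 66.9 and 67.6 CPM to 79.1, 78 and 77.3 CPM with it. KRT13 (-1.99, SE 0.087, adjusted p = 2.9e-14) and KRT17 (-1.22, SE 0.11, adjusted p = 5.4e-09, and -0.5 when the vehicle control replaced untreated cells) were likewise raised by CKI in cells without doxorubicin, while in doxorubicin-treated cells their CKI changes were -0.14 (SE 0.06) and 0.14 (SE 0.08). KRT15 (1.69, SE 0.076, adjusted p = 4.6e-14), KRT18 (1.2, SE 0.073, adjusted p = 5.8e-12) and KRT7 (1.22, SE 0.12, adjusted p = 7.9e-09) went the other way, being lower with CKI alone and at 0.66, 0.61 and 0.27 when CKI was added to doxorubicin.

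In MDA-MB-231 cells KRT15 and KRT34 rose with CKI, and KRT8, KRT18 and KRT7 were lower below the fold limit. Of the 14 keratins tested there, CKI raised 4 (background 3.76%) and lowered 0 past both limits (background 2.21%), although 8 passed the adjusted p alone and 9 had an unadjusted p under 0.05. KRT15 had 5.22, 5.94 and 5.36 CPM in untreated cells and 18.1, 16.9 and 15.8 CPM with CKI (1.61, SE 0.1, adjusted p = 4.2e-07). KRT34 had 34, 30 and 41 counts and then 86, 79 and 76 (1.19, SE 0.17, adjusted p = 2.2e-04). In these 2 genes no library of one group reached the other. KRT79 (4, 7 and 1 counts, then 16, 26 and 11) and KRT5 (2, 2 and 1 counts, then 13, 19 and 21) had an adjusted p of 0.017 and 0.024, and each had under 10 counts in every untreated library. KRT79 lost its call without CKI replicate 2 (1.77, adjusted p = 0.075) or untreated replicate 3 (1.65, adjusted p = 0.051), and KRT5 without CKI replicate 2 or 3 or untreated replicate 2 or 3 (3.06 to 3.4, adjusted p 0.052 to 0.065), against 2.1 and 3.31 with all libraries. The major keratins were lower without being called: KRT8 was at 815, 795 and 816 CPM (-0.7, SE 0.056, adjusted p = 3.0e-06) against 1397, 1282 and 1228, KRT18 at 194, 193 and 190 CPM (-0.71, SE 0.053, adjusted p = 1.6e-06) against 326, 311 and 303, and KRT7 at 251, 265 and 255 CPM (-0.42, SE 0.071). KRT19 overlapped, with 729, 726 and 741 CPM (-0.13, SE 0.12, adjusted p = 0.41).

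5-FU called 4 keratins, 2 higher (background 6.01%) and 2 lower (background 7.31%). KRT7 fell to 136, 132 and 124 CPM from 309, 374 and 342 CPM (-1.39, SE 0.073, adjusted p = 3.1e-08), and KRT19 to 333, 336 and 319 CPM from 610, 878 and 904 CPM (-1.28, SE 0.12, adjusted p = 2.6e-06). KRT8 (-0.81, SE 0.056) and KRT18 (-0.79, SE 0.053) were lower by less than the limit, at 737 to 755 and 173 to 187 CPM, and their ratio was 0.545 ± 0.021 against 0.54 ± 0.015 untreated. KRT10 was higher by 0.6 (SE 0.059, adjusted p = 4.1e-06), at 143, 149 and 151 CPM. The simple keratins were therefore below the untreated libraries and KRT10 above them. The higher calls were KRT5 (4.51, SE 0.86, adjusted p = 7.7e-04) and KRT17 (2.21, SE 0.45, adjusted p = 0.0012), at 86, 17 and 25 and at 38, 17 and 19 counts. Both had under 10 counts in every untreated library, so that they passed the filter through the groups where they were high.

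The CKI, 5-FU and CKI+5-FU comparisons share their untreated libraries. With CKI+5-FU, 2 keratins were higher than in untreated MDA-MB-231 cells (background 4.29%) and 3 were lower (background 4.76%). KRT8 was at 565, 585 and 596 CPM (-1.16, SE 0.057, adjusted p = 3.2e-08), KRT7 at 147, 142 and 155 CPM (-1.21, SE 0.072, adjusted p = 1.3e-07) and KRT86 at 46, 38 and 60 counts against 134, 206 and 194 (-1.96, SE 0.2, adjusted p = 1.0e-05). KRT15 was at 15.4, 14.5 and 15.9 CPM (1.47, SE 0.1, adjusted p = 4.8e-07), near its level with CKI alone, and KRT5, at 2, 2 and 1 counts untreated, was at 17, 33 and 44 counts (4.06, SE 0.91, adjusted p = 0.003). Compared to 5-FU alone, CKI+5-FU called 0 keratins higher (background 5.26%) and 1 lower (background 4.51%), KRT17, at 1, 6 and 4 counts against 38, 17 and 19 (-2.73, SE 0.48, adjusted p = 5.6e-04). Every CKI+5-FU library had under 10 counts of KRT17, so that it passed the filter through the 5-FU libraries and had to be lower. DESeq2 called 1 keratin higher and 1 lower there, and 11 keratins had an unadjusted p under 0.05. KRT19 (0.7, SE 0.12) and KRT15 (0.93, SE 0.098) were higher below the limit. The interaction of CKI with 5-FU was above 0 in 0 keratins (background 3.04%) and below 0 in 2 (background 3.81%), KRT17 (-3.2, SE 0.77, adjusted p = 0.0083) and KRT5 (-3.76, SE 1.1, adjusted p = 0.026). Both calls rest on genes with under 10 counts in every untreated library, which passed the filter through treated groups where they were high. KRT5 lost this call without CKI replicate 2 or 3 or untreated replicate 2 or 3, at a difference of -3.52 to -3.86 (adjusted p 0.051 to 0.06). DESeq2 also called 0 above 0 and 2 below 0, and 10 keratins had an unadjusted p under 0.05.

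The low keratin counts of MDA-MB-231 were set beside other A431 genes. Of the 2134 non-keratin genes with at least 100 CPM in each untreated A431 library, 12 had no count in untreated MDA-MB-231 (among them MAGEA4, CALML5, FXYD3, DSG3 and S100A9), a choice that fixes their value there at 0. Their summed count was 12 to 22 with CKI, 16, 25 and 55 with CKI+5-FU, and 78, 20 and 21 with 5-FU. The 12 did not move together. In treated libraries other than 5-FU replicate 1, S100A9 had 4 to 25 counts and MIR205HG 2 to 12. MAGEA4, CALML5, AOC1 and TMPRSS4 had 0 in all of those libraries, and the remaining genes had 0 to 8. 5-FU replicate 1 stood apart: it held counts of all 12 genes, and it was the only MDA-MB-231 library with KRT6B (19 counts), besides 86 of KRT5, 50 of KRT14, 42 of KRT6A and 38 of KRT17. Its CPM of KRT5, KRT6A, KRT6B, KRT14, KRT16 and KRT17 came to 0.111 to 0.97% of the means of untreated A431 cells and 0.142 to 0.629% of those of the vehicle control. The shares were 0.167 to 0.362% of A431 cells with CKI, 0.121 to 0.236% with doxorubicin and 0.112 to 0.27% with CKI+doxorubicin. The 12 genes summed to 0.108, 0.126, 0.12, 0.177 and 0.144% of these groups in the same order. Without this library KRT5 remained called in the 5-FU comparison, at 3.53, and KRT17 at 1.79.

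In the other 8 treated MDA-MB-231 libraries KRT5 had 13 to 44 counts, 189 in all, while KRT6B had 0 in all, KRT14 24 and KRT6A 65. A431 libraries held 1.84 to 8.47 counts of KRT5 per count of KRT6B, 0.953 to 5.38 per count of KRT14 and 1.04 to 2.74 per count of KRT6A. The part of carry-over between libraries in the KRT5 and KRT17 calls was not tested. In untreated MDA-MB-231 cells, KRT5 and KRT6A stood at 0.00243 and 0.00241% of untreated A431, a share that only 12 of the 2134 genes were below, KRT14 at 0.0179% (15 genes below), KRT17 at 0.142% (32 genes below) and KRT15 at 0.364% (40 genes below). With CKI, KRT15 had 313 to 362 counts per MDA-MB-231 library. KRT34, at 76 to 86 counts, was above its 5 to 9 counts in untreated A431 libraries. It was below its 605 to 644 counts in A431 libraries with CKI and its 726 to 782 with CKI+doxorubicin.

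**Figure D5:**
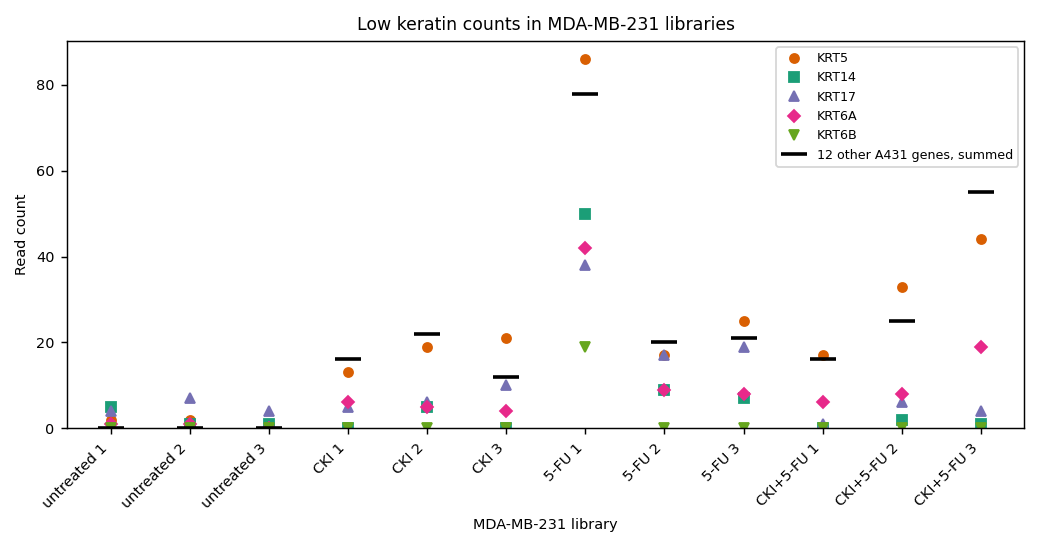
Read counts of 5 keratins (coloured points) and the summed count of 12 other genes high in A431 and at 0 in untreated MDA-MB-231 (black bars) in each of the 12 MDA-MB-231 libraries. 5-FU replicate 1 has 86 counts of KRT5 and 78 of the 12 genes, the highest of both, and the only counts of KRT6B.

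The CKI response differed between lines in 9 of 33 tested keratins, taken as the log2 change in A431 minus that in MDA-MB-231. It was above 0 in 5 (background 8.87%) and below 0 in 4 (background 9.62%). KRT15 was lowered in A431 and raised in MDA-MB-231 (-2.62, SE 0.11, adjusted p = 3.8e-09). KRT34 rose in both, more in A431 (5.12, SE 0.27, adjusted p = 2.4e-08, and 3.37 against the vehicle), and KRT81 rose in A431 only past the limits (2.89, SE 0.17, adjusted p = 4.8e-08), with 21.1, 22.7 and 22.1 CPM against 15, 22.9 and 19.8 CPM in MDA-MB-231. KRT86 (1.87, SE 0.17, adjusted p = 1.6e-06) was higher with CKI in A431 and lower in MDA-MB-231. KRT5 (-4.09, SE 0.32) and KRT6A (-3.58, SE 0.52) rest on MDA-MB-231 counts of at most 21 and 6 per library. For KRT8 the difference was 0.19 (SE 0.11, adjusted p = 0.15) and for KRT18 0.13 (SE 0.093, adjusted p = 0.27), neither past the threshold.

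Other genes of the filament system were taken from lists chosen with earlier results of these data known. Of 13 other intermediate filament genes, 9 were tested in A431, and 0 were higher and 3 lower with CKI (median log2 fold change -0.49, against 0 over all genes, of which 12% were higher and 10.4% lower), namely LMNB1 (-2.56, SE 0.069) and LMNB2 (-1.49, SE 0.079), which encode lamins of the nuclear envelope, and VIM (-1.41, SE 0.14). With doxorubicin 5 were higher and 2 lower (median 1.18, against 0.02 over all genes, of which 23% were higher and 14.3% lower), with SYNM, the synemin gene, at 3.07 (SE 0.092), VIM at 2.24 (SE 0.1) and NEFM at 2.14 (SE 0.17), and LMNB1 at -2.48 (SE 0.068). VIM rose only to 35 CPM there, against 1730 CPM in untreated MDA-MB-231 cells. CKI+doxorubicin had 3 higher and 2 lower against untreated (backgrounds 21.7% and 13.8%), and 0 and 3 against doxorubicin (backgrounds 6.89% and 8.03%). The vehicle control had 0 of 9 by edgeR or DESeq2 (backgrounds by edgeR 1.05% and 1.5%), with 2 at an unadjusted p under 0.05. In MDA-MB-231, where 7 were tested, CKI lowered VIM (-1.03, SE 0.075) and LMNB1 (-1.13, SE 0.076), against a background of 2.21%. CKI+5-FU lowered these and LMNA (background 4.76%). 5-FU changed 0 of the 7 past the limits by edgeR (backgrounds 6.01% higher and 7.31% lower) or DESeq2, with 3 at an unadjusted p under 0.05.

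Of the 10 genes listed for linker proteins, which tie keratin to desmosomes and other structures, 9 were tested in A431. By edgeR 0 were higher past the fold limit with CKI or doxorubicin, at a median of -0.05 and -0.2, against a background of 12% and 23%. Below the limit, DST was at 0.96 (SE 0.066, adjusted p = 8.4e-12) with CKI and JUP at 0.67 (SE 0.11, adjusted p = 5.4e-06) with doxorubicin. CKI lowered PKP3, a plakophilin (-1.43, SE 0.12, background 10.4%). Doxorubicin (background 14.3%) lowered PKP3 (-3.23, SE 0.13), PLEC, the plectin gene (-3.19, SE 0.14), and EVPL, the envoplakin gene (-2.12, SE 0.1). CKI+doxorubicin lowered the same 3 (background 13.8%), with PLEC at -1.27 (SE 0.13), 1.92 (SE 0.13, background 6.89%) above doxorubicin alone. In MDA-MB-231, 8 were tested, and PKP3 (-1.3, SE 0.22) was the gene lowered by CKI (background 2.21%) and PLEC (-1.22, SE 0.33) the gene lowered by 5-FU (background 7.31%). The vehicle control changed 0 of 9 by edgeR or DESeq2 (backgrounds by edgeR 1.05% higher and 1.5% lower), with 5 at an unadjusted p under 0.05. Between untreated lines 5 of 9 were higher in A431 (background 19.7%) and 1 was lower (background 21.8%). Among the higher was PKP1, at 288 against 0.0338 CPM, which passed the filter only through A431.

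Of the 17 transcription factors listed as known to act on keratin genes, all were tested in A431 and 13 were higher there than in MDA-MB-231 (background 19.7%), with 0 lower (background 21.8%) and a median of 4.76. Only 11 of the 17 passed the filter among MDA-MB-231 libraries. The rest had passed it here only through A431 and had to differ, which also raises the median. CKI raised 3, namely ZNF750 (2.34, SE 0.1), KLF4 (1.19, SE 0.065) and OVOL1 (1.15, SE 0.076), which act in epidermal differentiation, and lowered 0 (backgrounds 12% and 10.4%). Doxorubicin lowered TP63 (-2.18, SE 0.059), the regulator of the basal layer, from 227 to 50.8 CPM, as well as ZNF750 (-2.44, SE 0.16), and raised GRHL3 (1.62, SE 0.068) and OVOL1 (1.05, SE 0.076), against backgrounds of 14.3% and 23%. ZNF750 was also higher in the vehicle control (1.53, SE 0.11), where CEBPA was lower (backgrounds 1.05% and 1.5%). In MDA-MB-231 11 were tested, and GRHL1 was the only member higher with CKI (1.55, SE 0.36, background 3.76%) and with 5-FU (1.18, SE 0.38, background 6.01%), at no more than 2.84 CPM in any MDA-MB-231 group.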

How the data were processed

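Total RNA of 27 libraries was sequenced in paired ends without strand. Per the labels, the authors trimmed reads with Trim Galore 0.3.7 and aligned them with STAR 2.5.3a on hg19 (GRCh37), and the deposited values are unnormalized counts. The counting tool and annotation are not given in the sources used here, so overlapping genes are uncertain. Entrez IDs were named through RefSeq (24422 of 24566 rows), and exon lengths and positions came from GENCODE 44 on GRCh37. Members and lists were chosen with earlier results of these data known.

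The deposited counts were fitted with edgeR 4.0.16 in R 4.3.3 (TMM, filterByExpr, glmQLFit, glmQLFTest), with all groups of a line in the fit. A gene was called at a Benjamini-Hochberg adjusted p under 0.05 and an absolute log2 fold change above 1, in 13 comparisons. CPM used TMM factors over all libraries, and CPM per kb used the union of exons. Promoters were from RefSeq on GRCh38.p14. Genes named were the classical keratins, others of at least 10 CPM in a group, and the 3 called keratins of smallest p in each direction. Other keratins named (such as KRT33A, KRT37, KRT40, KRT72, KRT79, KRT85 and those of counts of 5 or fewer) were chosen after their values were seen. A fold against a group at 0 used a floor of 3 counts per library.

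The fit was tested on simulated data. Alternatives were DESeq2 1.42.0, RLE factors, library size alone, other count filters, the compared groups alone, the adjusted p alone, vehicle libraries as the control, GC and length offsets, 1 row per Ensembl ID, a replicate block, and the omission of 1 library at a time. For the line comparison the block had to run across lines, which was chosen after seeing the data. Replicates are said by the series to be biological.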

Additional observations from a re-analysis of the deposited data

Results flagged for a closer look

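The effect of CKI differed with the presence of a drug or between cell lines in the keratins given here, each by the interaction term of edgeR's quasi-likelihood test with Benjamini-Hochberg adjustment. Values are differences of log2 changes, with their standard errors.

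In A431 cells the CKI change with doxorubicin minus that without it was -2.84 (SE 0.11) for KRT81, -1.99 (SE 0.087) for KRT13, -1.22 (SE 0.11) for KRT17, 1.69 (SE 0.076) for KRT15, 1.2 (SE 0.073) for KRT18 and 1.22 (SE 0.12) for KRT7. Among keratins of lower level it was -1.58 (SE 0.21) for KRT6C, -2.01 (SE 0.32) for KRT34, -2.95 (SE 0.53) for KRT33B, -3.11 (SE 0.54) for KRT20, -1.44 (SE 0.29) for KRT4 and 1.54 (SE 0.38) for KRT78. When the vehicle libraries served as the control, 3 of the 15 keratins called here lost their call, KRT34 at -0.26 (SE 0.24, adjusted p = 0.36), KRT78 at 0.35 (SE 0.42, adjusted p = 0.5) and KRT17 at -0.5 (SE 0.11, adjusted p = 6.8e-04). KRT34 had 5 to 9 counts per untreated library and 19 to 31 per vehicle library. KRT33B had 1, 9 and 5 counts in the untreated libraries and KRT20 had 1, 3 and 3. Both passed the filter only through treated groups where they were high. KRT24 (4.21, SE 1.1), KRT83 (-2.55, SE 0.87) and KRT85 (-4.58, SE 1.8) rest on groups at or near 0 counts, so that their size depends on the prior count.

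In MDA-MB-231 cells the CKI change with 5-FU minus that without it was -3.2 (SE 0.77) for KRT17 and -3.76 (SE 1.1) for KRT5. Both had under 10 counts in every untreated library and passed the filter through treated groups where they were high. Without 5-FU replicate 1, which also held counts of all 12 genes high in A431, both were at -2.77. The part of carry-over was not tested.

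Between lines, the CKI change in A431 minus that in MDA-MB-231 was -2.62 (SE 0.11) for KRT15, 5.12 (SE 0.27) for KRT34, 2.89 (SE 0.17) for KRT81 and 1.87 (SE 0.17) for KRT86. It was -4.09 (SE 0.32) for KRT5 and -3.58 (SE 0.52) for KRT6A, which had at most 21 and 6 counts in an untreated or CKI-treated MDA-MB-231 library. For KRT33B (3.38, SE 0.98), KRT24 (-7.47, SE 2.2) and KRT20 (5.5, SE 2.1) at least 1 group had no more than a few counts, and these sizes depend on the prior count.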

How the results depend on the processing

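Of 3022 values of single keratins under the alternatives, 2862 kept their direction and side of the limits, 41 lost a call, 107 gained one and 12 changed sign. Those that changed sign were KRT18 in the vehicle control (0.05), KRT10 with CKI (0.01), KRT6A with doxorubicin (-0.02) and KRT14 and KRT13 in CKI+doxorubicin against doxorubicin (0.08 each), all with GC and length offsets, also with the replicate block, as well as KRT6B with CKI against the vehicle (-0.19) and KRT18 with CKI+doxorubicin under library size alone (0.09). None of these was called.

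With at least 10 counts in every library, which drops keratins silent in a group, the keratins called were 4 between lines, 2 in the vehicle control, 6 with CKI, 11 with doxorubicin, 12 with CKI+doxorubicin, 4 for CKI+doxorubicin against doxorubicin and 8 in the CKI by doxorubicin interaction, and in MDA-MB-231 2 with CKI, 2 with 5-FU, 0 for CKI+5-FU against 5-FU and 0 in the CKI by 5-FU interaction. The line by CKI interaction then held 3. By the adjusted p alone, with no fold limit, the counts were 15 in the vehicle control, 31 with CKI, 28 for CKI+doxorubicin against doxorubicin and 24 in the interaction, and in MDA-MB-231 8 with CKI, 10 with 5-FU, 10 with CKI+5-FU, 9 against 5-FU and 10 in the interaction. With no filter, 38 keratins were called with doxorubicin. That setting admits rows at 0 in untreated A431 cells, of which 33% over all genes had a count in every doxorubicin library. The shares of all genes called under the settings of this paragraph are not given here, so that its counts have no background beside them. For CKI+5-FU against 5-FU, where 1 was called, DESeq2 and no filter gave 2, and GC and length offsets, with or without the replicate block, gave 3.

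Leaving out 1 library at a time gave 2 to 5 keratins for CKI in MDA-MB-231 (2 without CKI replicate 2 or untreated replicate 3), 5 to 7 for 5-FU (7 without untreated replicate 1), 1 to 2 for CKI+5-FU against 5-FU (2 without 5-FU replicate 1, 5-FU replicate 3 or CKI+5-FU replicate 3) and 1 to 3 for the CKI by 5-FU interaction (1 without CKI replicate 2 or 3 or untreated replicate 2 or 3). Same-numbered libraries did not deviate together (mean correlation -0.0096 in A431 and -0.053 in MDA-MB-231). No label says whether the number marks a shared culture day. With the replicate block the keratins called were 22 between lines, 4 in the vehicle control, 17, 25 and 24 with CKI, doxorubicin and both, 12 against doxorubicin and 14 in the interaction, and in MDA-MB-231 4, 4, 5, 1 and 2, with 7 in the line by CKI interaction. Library size alone moved the median log2 change of all genes to 0.36 with doxorubicin, where keratins split 21 higher and 4 lower. For the settings of this paragraph too, the shares of all genes called are not given, so that its counts have no background. Low totals limit the keratins under 10 counts, of which no absence can be read.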
